A study of Mus musculus with 14 samples.

Results

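Mast cell proteases and markers were followed through 14 mouse melanoma tumours. The set holds 8 genes of the 18481 listed: Mcpt1, Mcpt4, Cma1, Tpsb2, Cpa3, Fcer1a, Ms4a2 and Hdc. They were chosen by name, with the knowledge that several of them were low at days 18 and 27, so their levels at those days are given as a description without a test. All 8 had a signal of 1 or more in 2 or more tumours.

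The tumours grew from SMM102 melanoma cells injected at 2 sites into each female C57BL/6J mouse of 6 to 8 weeks, and treatment began once they measured 150 to 300 mm3. The drug was PLX4032, the BRAF kinase inhibitor vemurafenib, injected into the peritoneum at 50 mg/kg on 5 days per week. Treated tumours were collected on days 3, 6 and 18 with n = 2 each and on day 27 with n = 4, and control tumours on days 3 and 6 with n = 2 each. For the controls, the sample labels read untreated, whereas the design text describes a vehicle. The day 27 tumours were the left and right tumours of 2 mice, and the columns of the table do not say which tumours shared a mouse. All groups share the cell line, the strain, the sex and the injection of 2 tumours per mouse.

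Mast cells are tissue-resident immune cells that carry granules loaded with proteases and histamine. Binding of antigen to IgE on their surface receptor empties these granules within minutes, and the skin is one of their main sites. In the mouse, connective tissue mast cells are known for Mcpt4, Cma1 (which encodes the chymase mMCP-5), Cpa3 and the tryptases, whereas mucosal mast cells are known for Mcpt1 and Mcpt2.

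Values are the deposited per-million, length-scaled signal, whose column totals ran from 879385 to 1084401. Changes are differences of log2(signal + 1), fitted with limma over all 15841 genes with 1 or more in at least 2 tumours, with the standard error (SE) and the Benjamini-Hochberg adjusted p; a gene was called at an adjusted p under 0.05. The added 1 makes the change of a low gene smaller than its fold. The comparisons share their controls and 1 estimate of the spread, to which the paired tumours of day 27 contribute, so adjusted p-values are too small wherever day 27 enters and rest partly on it elsewhere. No control later than day 6 was analysed here, so treatment and time cannot be told apart at days 18 and 27. In RNA from whole tumours, fewer mast cells and less RNA per mast cell cannot be told apart.

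Mcpt1 (chromosome 14, 56017971 to 56020384, plus strand), Mcpt4 (chromosome 14, 56059629 to 56062313, minus strand) and Cma1 (chromosome 14, 55941451 to 55944675, minus strand) lie in 1 cluster of chymase and granzyme genes on GRCm38. Cpa3, a carboxypeptidase of the granule, is on chromosome 3 (20215620 to 20242181, minus strand). The 250 bases before the transcription start (RefSeq, GRCm38.p6) are shown for these 4 genes, because Mcpt1 and Mcpt4 have closely similar windows and different patterns of expression, whereas Cma1 and Cpa3 have unlike windows and the most similar expression. Each is written 5′ to 3′ on the strand of its gene, and capitals mark TGATAA or AGATAA, hexamers with the GATA core, searched on both strands. The windows are chr14:56017714-56017963 on the plus strand and, on the minus strand, chr14:56062311-56062560, chr14:55944676-55944925 and chr3:20242182-20242431.
Mcpt1: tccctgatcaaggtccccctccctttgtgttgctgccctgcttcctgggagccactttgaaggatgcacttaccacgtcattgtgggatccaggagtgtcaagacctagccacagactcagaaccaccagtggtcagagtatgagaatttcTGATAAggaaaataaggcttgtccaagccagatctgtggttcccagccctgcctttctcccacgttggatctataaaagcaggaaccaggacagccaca
Mcpt4: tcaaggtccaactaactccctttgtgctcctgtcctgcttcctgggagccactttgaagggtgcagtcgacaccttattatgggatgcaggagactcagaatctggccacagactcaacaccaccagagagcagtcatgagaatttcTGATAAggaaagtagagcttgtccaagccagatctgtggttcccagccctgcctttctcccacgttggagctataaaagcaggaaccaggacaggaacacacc
Cma1: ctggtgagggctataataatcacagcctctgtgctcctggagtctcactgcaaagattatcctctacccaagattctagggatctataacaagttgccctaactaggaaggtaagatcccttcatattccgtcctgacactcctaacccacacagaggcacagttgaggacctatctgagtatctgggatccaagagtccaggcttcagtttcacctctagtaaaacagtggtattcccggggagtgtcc
Cpa3: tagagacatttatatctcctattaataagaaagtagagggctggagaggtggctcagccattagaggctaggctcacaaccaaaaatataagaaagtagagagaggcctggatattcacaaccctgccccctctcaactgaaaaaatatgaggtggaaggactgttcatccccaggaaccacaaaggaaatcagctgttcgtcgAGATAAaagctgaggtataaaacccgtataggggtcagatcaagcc

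The Mcpt1 and Mcpt4 windows were identical at 207 of 254 aligned columns (81.5%). Every other pair among the 7 members with a window in the RefSeq table (all but Tpsb2) was at 42.3% to 48.9%. Both windows hold TGATAA, which ends 94 bases before the start in Mcpt1 and 98 bases before it in Mcpt4. The Cpa3 window holds AGATAA, ending 41 bases before the start, and the Cma1 window holds neither hexamer. Other hexamers with the GATA core were not searched. The Cma1 window does hold such hexamers, among them ctatct, which reads AGATAG on the other strand. Among the windows not shown, Fcer1a has 1 AGATAA and Ms4a2 has 3, whereas Hdc has none. Either hexamer occurs in 16.6% of 32851 mouse windows of this length. These are matches of letters and were not tested as binding sites.

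Sequence similarity also bears on how reads are assigned. Of the 31-base words in its transcripts, Mcpt1 shares 6.71% with other genes (most with Mcpt2), Mcpt4 shares 12.2% (most with Cma2), Cma1 shares 10.6% (with the predicted gene Gm48934) and Ms4a2 4.03%. Tpsb2 and Hdc share 0.557% and 0.487%, and Cpa3 and Fcer1a share none. Most of the sequence of each member is thus its own, but the levels of Mcpt1, Mcpt4 and Cma1 carry this uncertainty.

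Mast cell genes were measurable in every control tumour, and Mcpt4, Cma1, Tpsb2 and Cpa3 stood higher than the receptor genes. Mcpt4, a chymase of connective tissue mast cells, read 79.6 and 51.8 on day 3 and 115 and 43.9 on day 6. Cma1 read 49.4 and 25.8, then 122 and 31.2. Tpsb2, the tryptase mMCP-6, read 74.9 and 38.8, then 274 and 62.1. Tumour 1 of control day 6 was the highest control for all 3 proteases, up to several times above its partner of the same day.

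Cpa3, stored with the chymases and tryptases, had the same order of tumours as Cma1 and Tpsb2 at a lower level, with 35.4 and 17.8 on day 3 and 84.6 and 23.2 on day 6. The IgE receptor followed. Fcer1a, its IgE-binding alpha chain, read 7.51 and 3.74, then 17.6 and 3.82, and Ms4a2, its signal-amplifying beta chain, read 1.49 and 1.05, then 4.59 and 1.07. Hdc, which makes histamine from histidine, read 6.20 and 6.93, then 11.8 and 2.05. Tumour 1 of control day 6 was the highest control for 7 of the 8 members, a position it held for 31.9% of all genes.

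Mcpt1 was the exception. This beta-chymase read 41.7 and 27.9 in the controls of day 3 and 3.28 and 32.9 in those of day 6. The control tumour in which the other 7 members were highest therefore had the lowest Mcpt1 of the controls. Between the control days 0 of the 8 members were called, where 0.0% of all genes were called by limma and 886 had an unadjusted p under 0.05. Without tumour 2 of control day 6, 1 member, Mcpt1, was called (log2 change -3.04, adjusted p = 0.031).

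**Figure D1:**
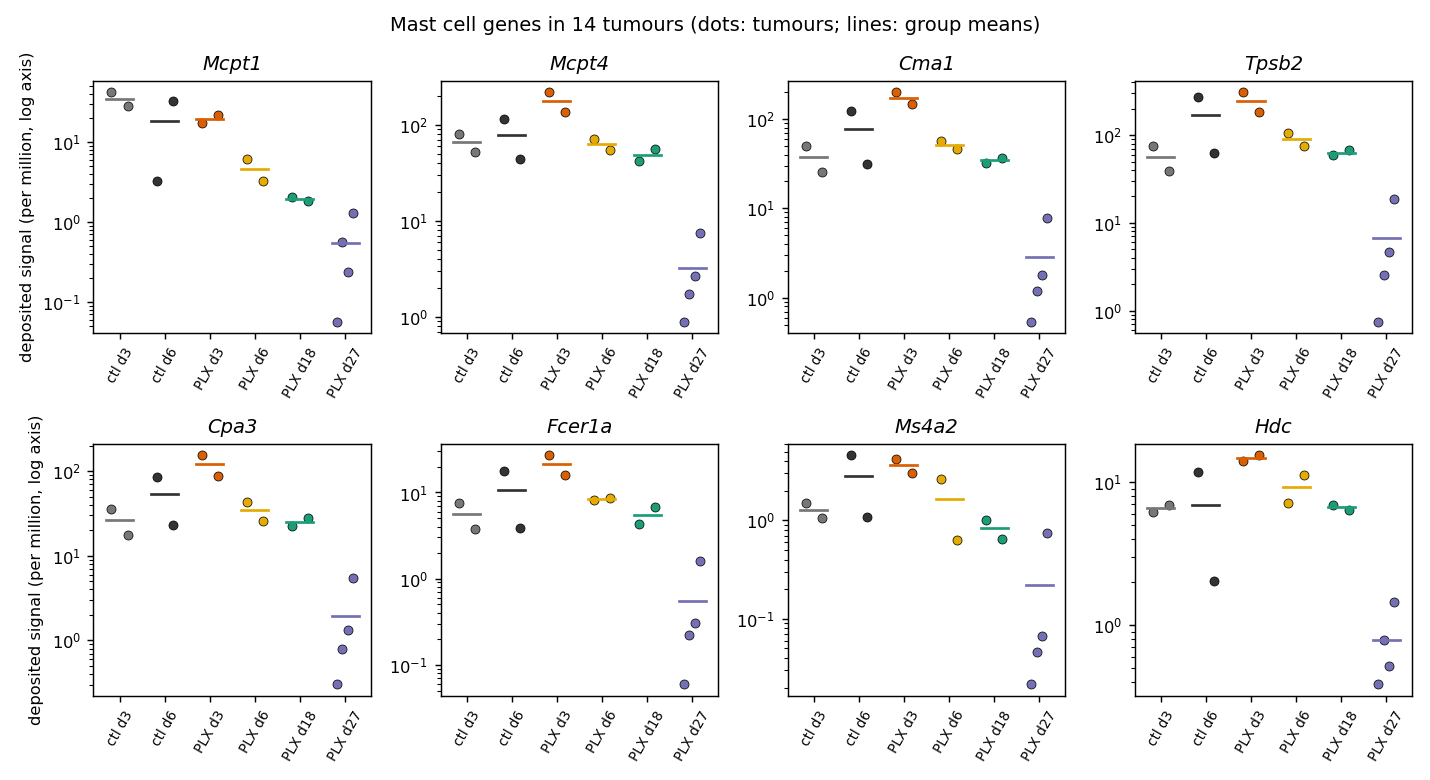
Deposited signal (log axis) of the 8 mast cell genes in each of 14 tumours (dots) by group, with group means (lines); ctl, control; PLX, PLX4032; d, day. At day 27 every tumour lies below every control for all 8 genes, and at day 18 Mcpt1 is near 2 while Cpa3 is between 22.4 and 28.2.

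After 3 days of PLX4032, 4 of the 8 members were higher than in the controls by the test, Cma1, Cpa3, Fcer1a and Hdc, and none was lower. This comparison called 45.8% of all genes, 24.9% higher and 20.8% lower. The median log2 change was 1.41 over the 8 members and 0.02 over all genes.

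Cma1 read 198 and 146, against 57.2 ± 45 (SD, n = 4) in the controls. Both treated tumours lay above all controls. The log2 change was 1.83 (SE 0.65, adjusted p = 0.040 in limma). Cpa3 read 154 and 87.7, against 40.3 ± 30 (SD, n = 4), again without overlap. Its log2 change was 1.76 (SE 0.64, adjusted p = 0.042 in limma).

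Fcer1a read 27.1 and 15.9, against 8.17 ± 6.5 (SD, n = 4) in the controls, and changed by 1.49 on the log2 scale (SE 0.52, adjusted p = 0.036 in limma). Here the lower treated tumour was under tumour 1 of control day 6, so the groups overlapped. Hdc read 14.1 and 15.5, above all controls, and changed by 1.20 (SE 0.45, adjusted p = 0.048 in limma). The call of Hdc was lost in most alternatives. Among these were median-of-ratios rescaling (adjusted p = 0.057 in limma), quantile normalisation (0.053), no variance trend (0.051) and same-day controls (0.12).

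The other 4 members did not pass. Mcpt4 read 218 and 136, also above every control, changing by 1.34 on the log2 scale (SE 0.54, adjusted p = 0.062 in limma). Tpsb2, at 306 and 182, and Ms4a2, at 4.23 and 3.03, overlapped with tumour 1 of control day 6 (log2 changes 1.48 and 0.73, adjusted p = 0.17 for both in limma). Mcpt1, at 17.3 and 22.0, lay within the range of the controls and had a log2 change of -0.01 (SE 0.64). Both treated tumours were above all controls for 4 of the 8 members, as for 31.2% of all genes.

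The calls of day 3 depended on single tumours. They numbered 0 of 8 without tumour 2 of control day 3, without tumour 2 of control day 6, and without either PLX4032 tumour of day 3. Between 1 and 2 members were called without either tumour of PLX4032 day 6, without either of day 18 and without tumour 2 or tumour 3 of day 27, and 6 without tumour 1 of control day 6. With 0.1 in place of 1 added to each value, or with the compared groups fitted alone, 0 of 8 passed.

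The rise at day 3 came with higher levels of many other cell types, in a comparison that called 24.9% of all genes higher. The summed signal of 8 T cell genes was 149 to 253 at day 3 against 18.1 to 32.8 in the controls, and all 8 were called higher. That of 9 macrophage and monocyte genes was 6200 to 7680 against 611 to 2130, with 9 called higher. The summed signal of 8 skeletal muscle genes was 743 to 845 against 39.7 to 286, with 1 called higher. The part of these cells and tissues in the members' rise was not tested.

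At day 6 the levels were back near those of the controls for 7 members. Mcpt4 read 70.7 and 55.4, Cma1 56.0 and 46.0, Tpsb2 106 and 74.6, and Cpa3 43.2 and 25.8. Fcer1a read 8.16 and 8.55, Ms4a2 2.65 and 0.637, and Hdc 7.20 and 11.3. Only Ms4a2 had a tumour outside the range of the controls, on the low side.

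Mcpt1 again stood apart, with 6.07 and 3.23 at day 6, against 26.5 ± 16 (SD, n = 4) in the controls. Both values were far below 3 of the controls and close to tumour 1 of control day 6. Its log2 change was -1.91 (SE 0.64, adjusted p = 0.10 in limma). None of the 8 members was called in this comparison, which called 5.92% of all genes. Without tumour 1 of control day 6, 2 members passed, Mcpt1 (-2.66, adjusted p = 0.0064 in limma) and Hdc (1.07, adjusted p = 0.023).

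Between the 2 early treated days, both tumours of day 3 were above both of day 6 for all 8 members. The share of all genes with this order was not counted, and the members are correlated, so nothing is read from it. The median log2 change was -1.42 over the members and -0.05 over all genes. None of the members passed the test, where 18.3% of all genes were called. The smallest adjusted p was that of Mcpt1 (log2 change -1.91, SE 0.74, adjusted p = 0.096 in limma), and the changes of the others ran from -0.65 for Hdc to -1.77 for Cpa3. Leaving out either control of day 6 brought Mcpt1 past the threshold (adjusted p = 0.0069 without tumour 1 and 0.0071 without tumour 2). With 5 added to each value 2 members passed (Mcpt4 and Cpa3), and with the compared groups fitted alone 2 others did (Mcpt1 and Cma1).

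**Figure D2:**
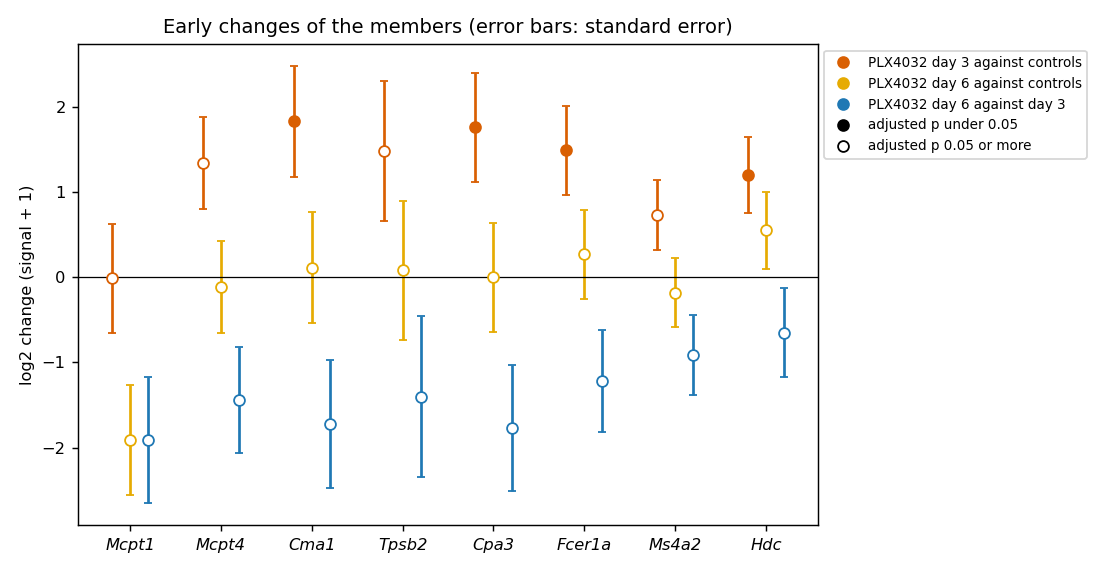
Log2 change of each member (points, with SE as bars) for PLX4032 day 3 and day 6 against the controls and for day 6 against day 3; filled points have an adjusted p under 0.05. Filled points are Cma1, Cpa3, Fcer1a and Hdc at day 3, and Mcpt1 is the one member near 0 at day 3 and near -2 at day 6.

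At day 18 the members split. Mcpt1 read 2.07 and 1.81, 13.6-fold below the mean of the controls and below every control. Mcpt4, which lies in the same gene cluster, read 42.6 and 55.8, and Cma1 read 32.3 and 36.6. Both were within or just under the range of the controls, at 1.47-fold and 1.66-fold below their means.

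The remaining members kept close to the controls as well. Tpsb2 read 58.7 and 67.0, Cpa3 22.4 and 28.2, Fcer1a 4.30 and 6.74, and Hdc 6.98 and 6.41. Ms4a2, at 1.01 and 0.652, was 2.46-fold below the mean of the controls without overlap, at values near 1. Low levels at day 18 were thus a feature of Mcpt1 and, less so, of Ms4a2. In the same 2 tumours the summed signal of 7 fat cell genes was 2640 and 2530, against 23.5 to 68.9 in the controls, and that of the muscle genes was 39.2 and 1570. The part of these tissues in the members' levels was not tested.

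At day 27 all 8 members were at or near the bottom of their range. In tumours 1 to 4, Mcpt4 read 0.895, 1.72, 2.70 and 7.49. Cma1 read 0.54, 1.18, 1.78 and 7.80. Tpsb2 read 0.75, 2.55, 4.63 and 18.8. The means were 22.7-fold, 20.3-fold and 16.8-fold below the controls.

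Cpa3 had the same order across the 4 tumours, at 0.303, 0.788, 1.32 and 5.43 (20.5-fold lower). So did Fcer1a, at 0.0591, 0.223, 0.304 and 1.58 (15.1-fold lower), and Ms4a2, at 0.0216, 0.0463, 0.0668 and 0.74 (9.37-fold lower). Hdc read 0.385, 0.785, 0.521 and 1.46 (8.57-fold lower). Mcpt1 read 0.0569, 0.565, 0.235 and 1.31 (48.9-fold lower). Tumour 1 was the lowest and tumour 4 the highest of the day for all 8 members. Tumour 4 was the highest of the day for 27.8% of all genes, and the share with tumour 1 lowest was not counted. The members are correlated and were chosen partly for their values at day 27, so nothing is read from this order.

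All 4 tumours of day 27 lay below all controls for 8 of 8 members, as for 6.43% of all genes. They lay below all 10 other tumours for 7 of 8, the exception being Ms4a2, and for 2.39% of all genes. Nothing is read from these shares, since the low values at day 27 were a reason for choosing the genes. The fitted log2 changes ran from -1.22 for Ms4a2 to -4.27 for Mcpt4. Over all 14 tumours, the highest value exceeded the lowest 732-fold for Mcpt1, 508-fold for Cpa3 and 40.2-fold for Hdc.

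Genes of T cells, macrophages and fibroblasts had no fall of this size. The summed signal of the 8 members was 3.01 to 44.6 at day 27 against 174 to 633 in the controls. T cell genes summed to 20.5 to 27.8 against 18.1 to 32.8, macrophage and monocyte genes to 919 to 1660 against 611 to 2130, and 9 fibroblast genes to 2740 to 3190 against 3120 to 4000. None of the T cell and macrophage genes was called, and of the 9 fibroblast genes 2 were called lower and 0 higher (median log2 change -0.49). Of all genes, 3.09% were called lower and 3.58% higher. Ptprc, the pan-leukocyte marker CD45, read 14.1 to 34.1 against 6.01 to 29.2.

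Skeletal muscle did move in the same direction: its 8 genes summed to 10.9 to 28.6 at day 27 against 39.7 to 286, with 1 gene called lower. Among them, the mean of Acta1 was 76.2 in the controls and 2.52 at day 27, and that of Mylpf 41.6 and 5.64. Fat cell genes summed to 19.1 to 28.8, against 23.5 to 68.9, with none called. At day 27 most of that sum was Fabp4 and Lipe, whose means moved little (16.8 to 13.5 and 11.9 to 8.98). The mean of Adipoq went from 1.78 to 0.0425 without overlap, and that of Cfd from 10.2 to 0.511 with overlap. Low means of this order were thus not limited to mast cell genes. The part of muscle or fat tissue in the members' low levels was not tested.

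**Figure D3:**
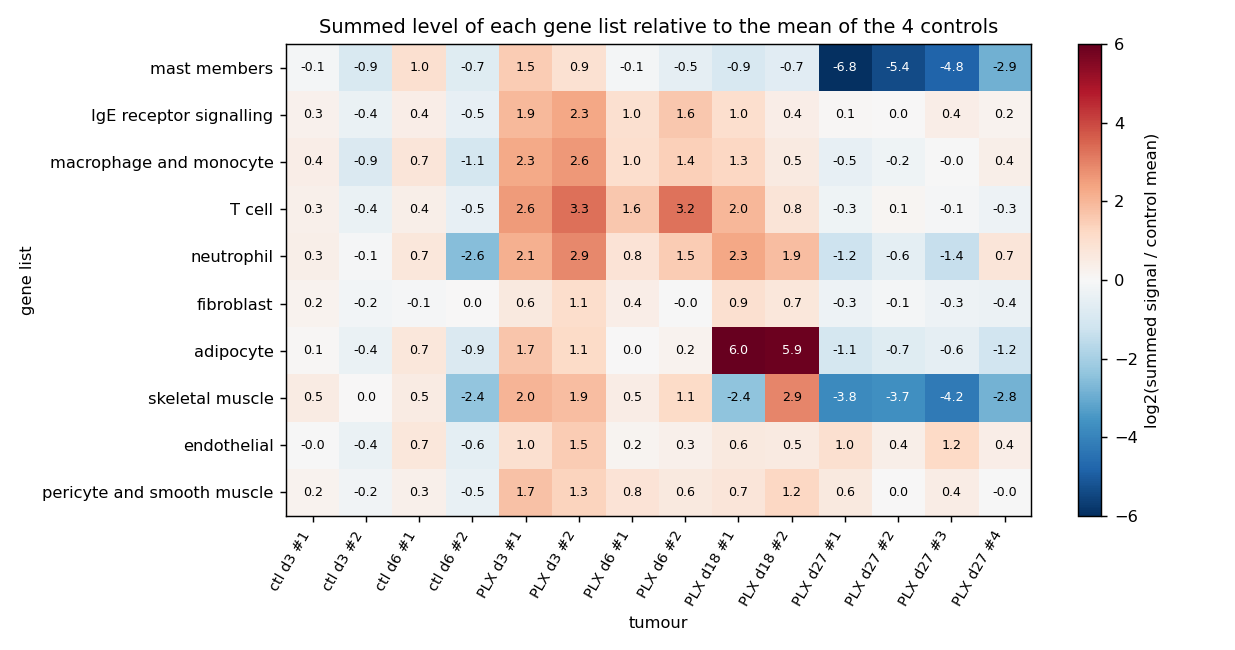
Summed signal of 10 gene lists in each tumour as log2 of its ratio to the mean of the 4 controls; rows are lists, columns tumours, blue is lower and red higher. The row of the 8 mast cell members is the lowest of the 10 rows at day 27 (sums of 3.01 to 44.6 against 174 to 633), that of skeletal muscle is low there too (10.9 to 28.6 against 39.7 to 286), and fat cell genes stand out at day 18.

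Of the members, Mcpt4, Cma1, Tpsb2 and Fcer1a kept the most even proportion to Cpa3, whereas Ms4a2, Hdc and Mcpt1 varied more. The ratio of Cma1 to Cpa3 lay between 1.29 and 1.78 in all 14 tumours, while Cpa3 varied 508-fold and Cma1 367-fold. That of Tpsb2 to Cpa3 lay between 1.99 and 3.5, that of Mcpt4 to Cpa3 between 1.36 and 2.96, and that of Fcer1a to Cpa3 between 0.165 and 0.331. At day 27 Cma1 to Cpa3 was 1.78, 1.49, 1.34 and 1.44.

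The ratio of Ms4a2 to Cpa3 spanned 5.9-fold, from 0.0231 to 0.0614 outside day 27 and up to 0.136 in tumour 4 of day 27. That of Hdc to Cpa3 spanned 14.4-fold, from 0.0886 to 0.439 outside day 27 and up to 1.27 in tumour 1 of day 27, where Cpa3 was at 0.303. The ratio of Mcpt1 to Cpa3 spanned 40.5-fold: 1.18 and 1.57 in the controls of day 3, 0.0388 and 1.42 in those of day 6, 0.112 and 0.251 at PLX4032 day 3, 0.140 and 0.125 at day 6, 0.0927 and 0.0641 at day 18, and 0.177 to 0.717 at day 27. Tumour 1 of control day 6 had the lowest Mcpt1 share of all, so a low share also occurred without treatment. The 3 other controls were the only tumours above 1.

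Pearson correlations of log2(signal + 1) were lowest for Mcpt1. Across the 14 tumours the 21 pairs without Mcpt1 ran from 0.812 to 0.998 (median 0.95), the highest being Cma1 with Cpa3, and the 7 pairs with Mcpt1 from 0.568 to 0.736. Across the 10 tumours before day 27, the 21 pairs ran from 0.551 to 0.988 and the 7 pairs with Mcpt1 from -0.235 to 0.219. The tumours share groups and libraries, so these values carry no p. Before day 27, the correlation was 0.219 for Mcpt1 with Mcpt4, whose promoter windows are closely similar. It was 0.988 for Cma1 with Cpa3, whose windows are unlike. These pairs were picked for this contrast, and a relation between promoter windows and expression was not tested.

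**Figure D4:**
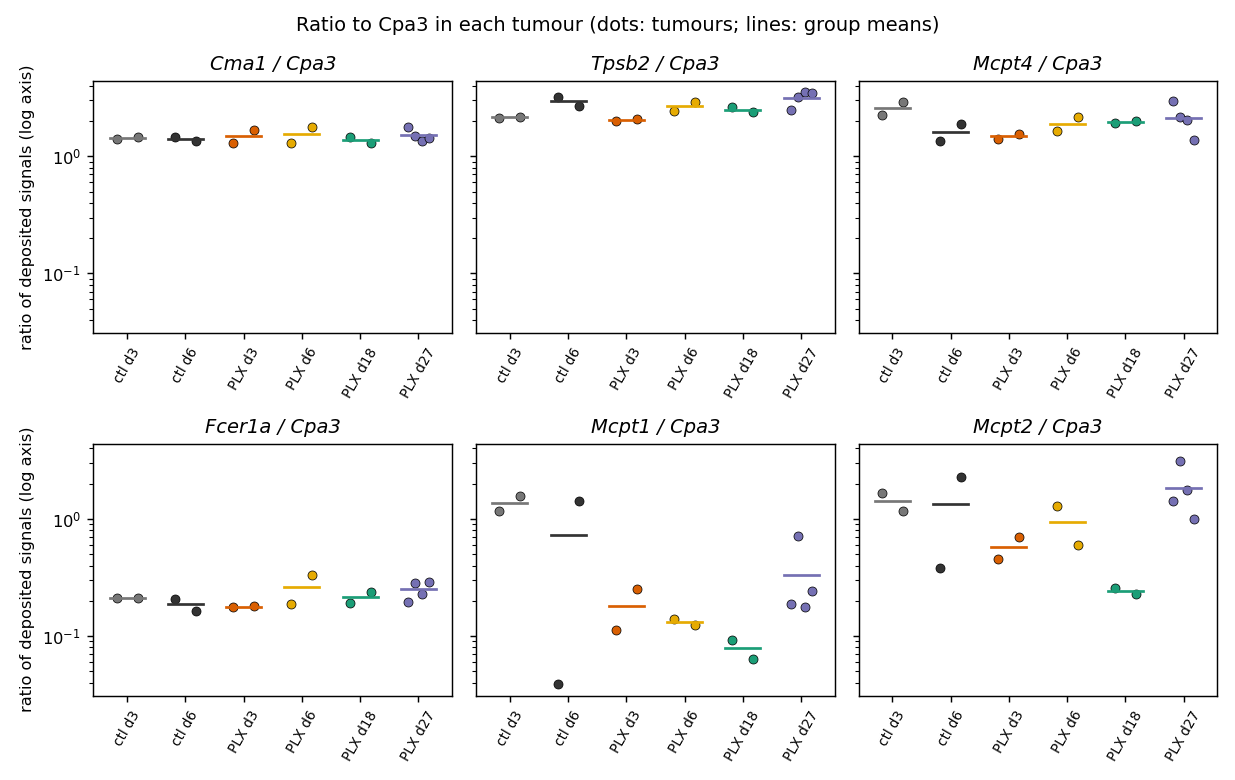
Ratio of 5 proteases or receptor genes and Mcpt2 to Cpa3 (log axis, same scale in each panel) in each tumour (dots) with group means (lines); ctl, control; PLX, PLX4032; d, day. Cma1 to Cpa3 stays between 1.29 and 1.78 in all 14 tumours, while Mcpt1 to Cpa3 ranges from 0.0388 to 1.57.

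Mcpt2, the mucosal beta-chymase gene of the same cluster, is not a member, and the fit was run for it at the late days. Its list was chosen with earlier results of these data known. Over the 14 tumours its correlation was 0.878 with Mcpt1 and 0.885 with Mcpt4. Its late p-values are therefore no independent support for low levels of the members. Mcpt2 read 59.3 and 21.1 in the controls of day 3, 32.5 and 52.8 in those of day 6, 70.6 and 61.3 at PLX4032 day 3 and 55.3 and 15.5 at day 6. At day 18 it read 5.77 and 6.49, below all controls, and at day 27 it read 0.428, 2.48, 2.33 and 5.39. Mcpt2 fell at both late days, by 2.47 at day 18 (SE 0.61, adjusted p = 0.035 in limma) and by 3.62 at day 27 (SE 0.50, adjusted p = 0.0037).

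The call of day 18 was lost without tumour 1 of control day 3, tumour 2 of control day 6, either tumour of day 18 or tumour 2 of day 27 (adjusted p up to 0.20), whereas that of day 27 held in all 25 alternatives. Before day 27, the correlation of Mcpt1 was 0.731 with Mcpt2. At day 18, therefore, both mucosal-type chymases were low while the connective tissue proteases read near the controls. Of the 31-base words of Mcpt1, 3.46% also occur in Mcpt2.

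A list of 20 further mast cell genes, chosen by their known role and with earlier results of these data known, held 17 that were tested. At day 3, 8 of the 17 were higher and none lower, with a median log2 change of 0.93. Of all genes, 24.9% were called higher at that day. Kit, the receptor of stem cell factor on which mast cells depend for survival, read 19.1 and 22.8 against 6.42, 3.31, 13.2 and 3.03 in the controls. Both treated tumours were above all controls, and Kit rose by 1.74 (SE 0.44, adjusted p = 0.0080 in limma; 0.068 without tumour 2 of PLX4032 day 3).

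Among the other genes that rose at day 3 were Cyp11a1, a steroid-synthesis enzyme (1.34, adjusted p = 0.0043 in limma), and Mrgprb2, the receptor for IgE-independent degranulation (1.23, adjusted p = 0.011; 0.11 without tumour 1 of PLX4032 day 3). Srgn, the proteoglycan core of the granule (2.59), Hpgds, a prostaglandin synthase (2.09), and Fcer1g, the signalling chain of the IgE receptor (2.52), rose too and are also expressed by other leukocytes. Tpsab1, another tryptase, did not pass (1.30, adjusted p = 0.079). At day 6, where 5.92% of all genes were called, 2 of the 17 were higher, Fcer1g and Srgn. Both calls were lost in many alternatives (adjusted p up to 0.50 and 0.56 in limma).

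At day 27, 5 of the 17 were lower and none higher, where 3.09% of all genes were called lower and 3.58% higher. Besides Mcpt2 these were Tpsab1, Tpsg1 (a membrane-anchored tryptase), Slc18a2 (which loads amines into granules) and Mrgprb1, the last named after its value was seen. Over the 14 tumours Tpsab1 had a correlation of 0.982 with Cpa3, so its level at day 27 is no independent support for that of the members. Tpsab1 read 0.12, 0.326, 0.686 and 2.84 in tumours 1 to 4, against 7.26, 3.46, 19.8 and 4.36 in the controls. There was no overlap, and the order was that of Cpa3. Tpsab1 fell by 2.18 (SE 0.46, adjusted p = 0.019 in limma). This call was lost without tumour 1 of control day 3 or tumour 1 or 2 of day 27.

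The calls of the other 3 were weak. Tpsg1 fell by 0.78 (adjusted p = 0.016 in limma, up to 0.12 over its alternatives), Slc18a2 by 0.58 (0.039, up to 0.20) and Mrgprb1 by 1.19 (0.049, up to 0.20). With the tumours of day 27 averaged into 2 mice under each of the 3 possible pairings, only Mcpt2 of these 5 kept its call throughout. Mrgprb2 read 0.0505, 0.10, 0.182 and 0.554 at day 27, a log2 change of -0.85 that did not pass (adjusted p = 0.091).

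Kit did not share the low levels of day 27. It read 7.25, 3.86, 7.09 and 4.37, within the range of the controls, and its log2 change was -0.02 (SE 0.36, adjusted p = 0.99 in limma). The ratio of Kit to Cpa3, which was 0.124 to 0.389 in the 10 earlier tumours, was 23.9, 4.89, 5.35 and 0.805 at day 27. Gata2, a transcription factor of mast cells and of other cells, read 56.6, 54.6, 70.2 and 57.5 against 70.8, 52.0, 71.2 and 65.5 in the controls (log2 change -0.11, SE 0.24, adjusted p = 0.84). Its level did not follow the members at day 3 either, at 66.1 and 30.8. Kit and Gata2 are expressed outside mast cells as well, and the cells behind these signals were not identified here.

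Basophils carry the same IgE receptor, so their markers were set beside the members. Mcpt8, on the same list of markers, was not among the genes of the deposited table. Prss34, a basophil protease, ran from 0.0 to 1.28 over all tumours and was too low to be tested. Cd200r3, an activating receptor of basophils and mast cells, read 6.17 and 4.38 at day 3, against 1.62, 0.76, 3.90 and 1.15 in the controls, and 0.104, 0.125, 0.283 and 0.447 at day 27. It rose at day 3 (1.23, adjusted p = 0.0085 in limma; 0.079 without tumour 1 of PLX4032 day 3). At day 27 it fell by 1.10 (adjusted p = 0.029), a call lost without tumour 1 of control day 3 or any single tumour of day 27 (up to 0.085). Of 5 basophil genes tested, 3 were higher at day 3, where 24.9% of all genes were called higher. At day 27, 1 was lower, where 3.09% of all genes were called lower, and the median log2 change of the 5 was -0.07. Il3ra, Il4 and Csf2rb2 overlapped with the controls at that day. Itga2 went the other way, at 4.58 to 6.51 against 2.52 to 3.75 in the controls.

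The list of IgE receptor signalling held 12 genes, among them the receptor's own signalling chain gene Fcer1g. At day 3, where 24.9% of all genes were called higher, 11 were higher, with a median log2 change of 2.27. At day 27, 0 were lower or higher, with a median of 0.05. Those with the smallest p at day 3 were the kinase gene Fyn (0.63), Fcer1g (2.52), the adaptor gene Lat2 (2.35) and the kinase gene Syk (2.08), and these calls held in all alternatives. At day 27 Fcer1g read 218, 196, 306 and 202 against 219, 127, 268 and 131 in the controls, with overlap (log2 change 0.35, adjusted p = 0.55 in limma). The alpha and beta chains, Fcer1a and Ms4a2, are largely restricted to mast cells and basophils, whereas these partners serve many leukocytes.

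Hrh2, a histamine receptor, and Hnmt, which inactivates histamine, were the 2 genes tested of 5 on the histamine list. Both rose at day 3 (1.84 and 1.55, adjusted p = 0.0023 and 0.0024 in limma). At that day 24.9% of all genes were called higher and 20.8% lower. Of the growth factors of mast cells, Kitl, which encodes stem cell factor, read 19.4 and 14.8 at day 3 against 22.5, 36.5, 29.4 and 28.6 in the controls, below all of them, and fell by 0.73 (SE 0.24, adjusted p = 0.028 in limma). This call was lost without tumour 2 of control day 3, tumour 2 of control day 6 or tumour 2 of PLX4032 day 3 (up to 0.21). Tgfb1, of the same list, rose at day 3 (1.32, adjusted p = 8.6e-05 in limma).

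Il33, an alarmin that activates mast cells, was higher at day 3 (1.28, adjusted p = 0.0024 in limma), at day 18 (2.29, adjusted p = 0.00051) and at day 27 (1.41, adjusted p = 0.0050; up to 0.055 with the day 27 tumours averaged by mouse). At day 18 it read 72.6 and 56.3, and at day 27 it read 28.7, 42.7, 31.5 and 34.8, against 13.0, 16.1, 12.1 and 8.82 in the controls. All 6 late tumours were above all controls.

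The chromosome 14 cluster holds other serine proteases, of which 8 were tested, Mcpt2 described above among them. Of the 8, 7 were higher at day 3, all but Mcpt2, where 24.9% of all genes were called higher. At day 6, 0 were higher. At day 18, 5 were lower, Mcpt2 and 4 granzymes, where 2.5% of all genes were called lower and 5.42% higher. At day 27, 6 were lower, again with Mcpt2, where 3.09% of all genes were called lower. The summed signal of the 8 was 28.2 to 56.2 at day 27 against 362 to 532 in the controls. The rises with the smallest p at day 3 were those of Gzmb (2.85), Gzmc (2.50), Ctsg (1.58) and Gzmd (1.82), and all 4 calls were lost without tumour 2 of that day (adjusted p 0.10, 0.14, 0.064 and 0.20 in limma). Granzymes are granule proteases of cytotoxic lymphocytes.

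At day 18 the calls with the smallest p were those of Gzmg, Gzmf, Gzmd and Gzme (adjusted p = 9.1e-06, 1.7e-05, 6.9e-05 and 0.00051 in limma). Gzmg read 85.1, 88.0, 129 and 137 in the controls and was listed at 0.0 in both tumours of day 18. The log2 changes were -6.51 for Gzmf, -5.97 for Gzmd and -4.86 for Gzme. At day 27 the log2 changes of these 4 genes ran from -6.37 to -4.32, and their calls at both days held in all 25 alternatives run. They are closely related genes, between which reads may be split. Within 1 gene cluster at day 18, therefore, Mcpt1, Mcpt2 and these 4 granzymes were low, while Mcpt4 and Cma1 read near the controls.

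Genes outside the set were ranked by how closely log2(signal + 1) followed the mean of the members, each centred on its own mean, over the 14 tumours. The tumours of day 27, where low levels were a reason for choosing the members, are included. The ranking was not repeated without them. Of 14741 candidates Tpsab1 came first (Pearson r = 0.967). Next were Setd1b (0.942), Mark2 (0.942), Per1 (0.941), Vcam1 (0.932), Acadvl (0.926), Tph1 (0.926), Bbs10 (0.922), Slc18a2 (0.922) and Serpinb1a (0.922). Tpsab1 was also first for Mcpt4, Cma1, Tpsb2, Cpa3 and Fcer1a taken singly, with r from 0.959 to 0.985. Cyp11a1 was first for Ms4a2 (0.94) and the predicted gene Gm16194 for Hdc (0.95).

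Mcpt1 had other nearest genes, Pcdhga3 (0.937), Trim65 (0.935) and Stxbp6 (0.933). None of these 3 was among the nearest genes of another member. Tph1, which makes serotonin, had a mean of 2.36 in the controls and 0.277 at day 27. Setd1b and Mark2 varied much less than the members, with means of 10.6 and 52.7 in the controls and 7.76 and 39.4 at day 27, so a high r does not mean a change of like size.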

How the data were processed

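RNA was sequenced from 14 whole tumours, and the authors' deposited table holds a signal per gene and tumour. Its name calls the values TPM. Column totals from 879385 to 1084401 show that the signal was rescaled, by a step that the labels do not state. Per the submitters' processing notes, kallisto, sleuth and the mm10 build were used, without versions. Depth is unknown, and no counting error can be given; values at or near 0 may be failed estimates. The filter and test had been set for TPM and were kept.

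limma 3.58.1 (R 4.3.3) was fitted to log2(value + 1) of 15841 genes with 1 or more in at least 2 tumours, with 6 group means, a variance trend and 8 residual degrees of freedom. Tests were 2-sided, and p-values were adjusted after Benjamini-Hochberg across every gene tested. Of 7 comparisons, 4 were tested for the members. The tumours of a group are separate samples by their labels. A lone tumour left in a group is assumed to vary like the others. The members and the 19 gene lists were chosen with earlier results of these data known. Named genes are the members, up to 4 genes of a list with the smallest p, fixed markers, and the genes of most similar pattern; 1 gene that this rule names is not reported here. Alternatives were other pseudocounts, filters and scalings, no variance trend, other uses of groups and controls, leaving out each tumour, and, chosen after seeing the data, averaging day 27 tumours by mouse. The steps were tested on simulated data. Coordinates are from GENCODE M21 (GRCm38, the assembly of mm10) and promoter windows from RefSeq.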

Additional observations from a re-analysis of the deposited data

Results flagged for a closer look

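In the 4 controls, a tumour was picked out when its gap to the nearest other tumour took up more of the group's range than Dixon's 95% critical value. The signal itself was used, with both control days together, and not the logarithm used in the fits. Of 8 members tested, 2 had such a tumour, where chance gives about 1 in 20 for normally distributed values. Whether the signal is so distributed was not tested, and the rule was not repeated on the log scale. The picks therefore hold for the signal scale only, and nothing is read from their number. The 8 members are also not independent, since 7 of them were highest in the same control.

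Tumour 1 of control day 6 stood above the other 3 controls for Tpsb2 (274) and Ms4a2 (4.59). The part of tumour composition in these values was not tested. The members were not tested in this way at day 27, since their levels there were a reason for choosing them.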

How the results depend on the processing

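The counts of genes called ranged as follows when each tumour was left out in turn: 4297 to 7522 at day 3 (7249 as reported), 0 to 2145 at day 6 (937), 314 to 2231 at day 18 (1254), 497 to 1144 at day 27 (1056), 4645 to 6525 late against early (6331), 1065 to 3229 for PLX4032 day 6 against day 3 (2892) and 0 to 31 between the control days (0). With the compared groups fitted alone, 0 genes were called at day 6, 178 at day 18 and 1003 for day 6 against day 3, and with same-day controls 8 at day 6. With day 27 averaged into 2 mice under the 3 pairings, 8, 3 and 24 were called at day 6 and 232, 162 and 250 at day 27. Quantile normalisation moved the median change of all genes at day 3 from 0.02 to -0.15 and the higher share of the calls from 54.4% to 38.9% (day 6: 75.9% to 60.4%; day 18: 68.4% to 44.9%, and 56.5% with median-of-ratios rescaling). The cause of these shifts was not tested.

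Members called numbered 0 to 6 without single tumours at day 3 (4 as reported), 0 to 2 at day 6, 0 to 1 for day 6 against day 3 and 0 to 1 between the control days. They were 0 at day 3 with a pseudocount of 0.1 and with the compared groups alone, and 2 for day 6 against day 3 with a pseudocount of 5 and with the compared groups alone. Over the 4 tested comparisons the members kept direction and call in 715 cases, lost the call in 50, gained it in 17 and reversed in 30. All that reversed were changes that did not pass. Only the 4 members called at day 3 had a call to lose, so all 50 losses are theirs. Most of the 715 are results that were not called in either fit. Ranges without single tumours of the results that reversed were, at day 3, -0.75 to 0.74 for Mcpt1 (0.04 with a pseudocount of 0.1). At day 6 they were -0.45 to 0.23 for Mcpt4, -0.38 to 0.59 for Cma1, -0.45 to 0.61 for Tpsb2, -0.46 to 0.45 for Cpa3, -0.22 to 0.76 for Fcer1a and -0.76 to 0.40 for Ms4a2. Same-day controls gave -0.28 for Cma1, -0.55 for Tpsb2 and -0.02 for Fcer1a, and a pseudocount of 0.1 gave 0.00 for Cpa3. Between the control days the ranges were -0.54 to 0.83 for Mcpt4, -0.19 to 1.75 for Cma1, -0.11 to 1.71 for Cpa3, -0.40 to 1.55 for Fcer1a, -0.13 to 1.31 for Ms4a2 and -1.31 to 0.76 for Hdc. Kit at day 27 ranged from -0.47 to 0.44 (0.00 with a pseudocount of 0.1). Of 38 called results of other named genes, 21 kept the call in every alternative.

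No paired analysis was possible because the columns carry no animal numbers that pair tumours across groups. Sequencing depth is unknown, which limits what can be said of values near 0, and groups of 2 tumours limit every call.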
